A study of Mus musculus with 2 samples.

Results

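Cells make cholesterol from acetyl-CoA, and 29 genes that make, sense or move it were followed here in the neural tube, the embryonic forerunner of brain and spinal cord. They were taken by symbol from a written list of sterol synthesis, regulation and transport genes, and all 29 were found among 43346 annotated genes. Of these, 18 encode synthesis enzymes, 5 belong to the sterol-sensing machinery and 6 to sterol transport and storage. Both libraries came from healthy B6NCrl embryos at 15.5 days of age, males and females pooled, with no transgene, mutation or treatment named. Replicate 1 pooled the neural tubes of 78 embryos and replicate 2 those of 62. Each library was made from 10 ng of RNA longer than 200 nucleotides. The labels call them biological replicates of 1 group, so there is no contrast between conditions and no test. SDs below measure the spread between these 2 pools.

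The genes form a chain. The mevalonate arm builds farnesyl diphosphate, which also feeds protein prenylation, ubiquinone and dolichol. Squalene synthase commits it to sterols, and lanosterol, the first sterol, is trimmed step by step to cholesterol. SREBP transcription factors are held in the endoplasmic reticulum with the escort protein SCAP by INSIG proteins while sterols are plentiful. When sterols run low, SREBP is carried to the Golgi, cut, and sent to the nucleus, where it activates the enzyme genes. The fetal brain relies largely on its own synthesis, since plasma lipoproteins hardly cross the blood-brain barrier once it has formed.

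The total depth was 35430338 expected counts in replicate 1 and 42321669 in replicate 2, of which 34678043 and 41355355 fell on annotated genes. Expected counts are read numbers shared out between transcripts by a model. Levels are given in TPM, a unit divided by transcript length and scaled to a common total per library, so levels of different genes can be set side by side. All 7 neuron markers were detected, as were all 7 radial glia and astrocyte markers and all 8 of the oligodendrocyte lineage. Detection means 1 TPM or more in both libraries. The libraries differed in tissue makeup. Thymocyte markers summed to 261.0 TPM in replicate 1 and 9.730 in replicate 2, with Cd3g and Cd8a at 0 in the latter. Epithelial markers summed to 765.6 and 7.540 TPM, with Foxn1 at 0 in replicate 2, and muscle markers to 132.3 and 240.5 TPM.

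Promoter sequence is shown for genes that the results below turn on: the highest and the lowest enzyme, 3 enzymes that carry repeated CCAAT letters, Srebf2, the starts of the main coding forms of Srebf1, the gene that differed most between pools, and the most abundant gene. Windows came from RefSeq on GRCm38.p6 and ran from 250 bases before to 50 bases after a gene's start. Of the 29 genes, 24 matched by symbol, 15 enzymes and 9 others. Capitals mark 3 motifs, searched on both strands: TCACNCCAC, a form of the sterol regulatory element bound by SREBP, CCAAT, the core of NF-Y sites, and GGGCGG, the core of GC boxes bound by Sp factors. Each was searched on its own, so matches may share bases, as ATTGG, the other strand of CCAAT, and GGGCGG can. Only bases upstream of annotated exons are printed, 5′ to 3′ on the gene's strand.
Hmgcs1, chr13:119690201-119690350, plus strand: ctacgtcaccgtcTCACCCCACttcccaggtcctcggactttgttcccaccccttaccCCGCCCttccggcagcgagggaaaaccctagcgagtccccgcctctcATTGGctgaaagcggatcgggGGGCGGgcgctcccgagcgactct
Mvk, chr5:114444119-114444268, plus strand: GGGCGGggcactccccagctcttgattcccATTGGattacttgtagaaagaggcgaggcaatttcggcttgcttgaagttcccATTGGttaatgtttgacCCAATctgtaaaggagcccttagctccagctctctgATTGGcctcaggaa
Mvd, chr8:122443423-122443572, minus strand: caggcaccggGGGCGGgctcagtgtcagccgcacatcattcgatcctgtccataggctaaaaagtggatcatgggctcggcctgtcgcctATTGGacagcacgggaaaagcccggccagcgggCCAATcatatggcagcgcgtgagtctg
Nsdhl, chrX:72918412-72918520, plus strand: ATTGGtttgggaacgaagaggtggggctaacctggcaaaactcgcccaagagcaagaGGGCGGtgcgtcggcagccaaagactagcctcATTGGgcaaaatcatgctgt
Hsd17b7, chr1:169969242-169969391, minus strand: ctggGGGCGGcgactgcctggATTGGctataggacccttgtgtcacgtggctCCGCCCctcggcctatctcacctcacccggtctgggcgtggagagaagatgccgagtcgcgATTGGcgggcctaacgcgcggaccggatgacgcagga
Srebf2, chr15:82147031-82147180, plus strand: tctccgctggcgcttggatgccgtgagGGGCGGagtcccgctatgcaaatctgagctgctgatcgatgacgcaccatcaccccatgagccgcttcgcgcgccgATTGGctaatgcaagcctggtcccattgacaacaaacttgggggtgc
Srebf1, upstream start, chr11:60220628-60220777, minus strand: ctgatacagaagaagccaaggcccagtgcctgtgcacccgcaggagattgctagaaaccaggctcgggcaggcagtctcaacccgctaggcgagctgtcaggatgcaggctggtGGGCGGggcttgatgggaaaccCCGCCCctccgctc
Srebf1, downstream start, chr11:60210472-60210621, minus strand: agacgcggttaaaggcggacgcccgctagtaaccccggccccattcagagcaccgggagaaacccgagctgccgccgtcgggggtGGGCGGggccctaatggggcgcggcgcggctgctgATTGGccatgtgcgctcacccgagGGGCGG
Soat1, chr1:156474332-156474481, minus strand: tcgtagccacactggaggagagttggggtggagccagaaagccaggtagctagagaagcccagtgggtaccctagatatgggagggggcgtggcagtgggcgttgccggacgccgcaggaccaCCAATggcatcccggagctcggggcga
Apoe, chr7:19699189-19699338, minus strand: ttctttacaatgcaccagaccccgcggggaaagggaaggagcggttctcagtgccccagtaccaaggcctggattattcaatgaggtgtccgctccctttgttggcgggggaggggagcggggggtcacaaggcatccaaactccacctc

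The sterol element pattern was present in 1 of 15 enzyme genes, Hmgcs1, with its first base at position -137, counted back from the start, and in 0 of 9 other members. Among 27025 genes with a window, 1.44% held it, and 1.24% of the 32851 windows did. CCAAT stood in 14 of 15 enzyme genes, all but Acat2, against 41.1% of all genes. GGGCGG stood in 14 of 15 enzyme genes, all but Pmvk, against 38.2% of all genes. Both patterns shared a window in 13 of 15 enzyme genes, in 5 of 9 other members and in 14.5% of all genes. Of the other members, 6 of 9 held CCAAT and 8 of 9 held GGGCGG. The printed stretch of Mvk carries 4 CCAAT matches in 150 bases, and that of Apoe carries none of the 3 patterns. A match describes letters in a window and shows no binding, and a missing match says only that these letters are not there.

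All 29 genes were detected, where 35.8% of all annotated genes and 63.4% of protein-coding genes were. The mean level over both libraries ran from 7.30 TPM for Abca1 to 540.2 TPM for Apoe. It lay above the median of detected protein-coding genes, 19.5 ± 0.665 TPM (SD, n = 2 libraries, 13622 genes), for 26 of the 29 and at or below it for Abca1, Lpl and Soat1. These levels are over all transcripts. Over coding transcripts only, Lss, Hsd17b7 and Npc1 averaged 15.2, 13.8 and 14.9 TPM, below that all-transcript median. On average 9 genes reached 100 TPM or more. The 18 enzymes had a median of 71.5 TPM in replicate 1 and 75.7 in replicate 2 (73.6 ± 2.98, SD, n = 2). Together they took 0.200% of all TPM in replicate 1 and 0.224% in replicate 2. Expected counts behind a member ranged from 414 to 33849 per library, so counting error was small beside the levels.

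**Figure D1:**
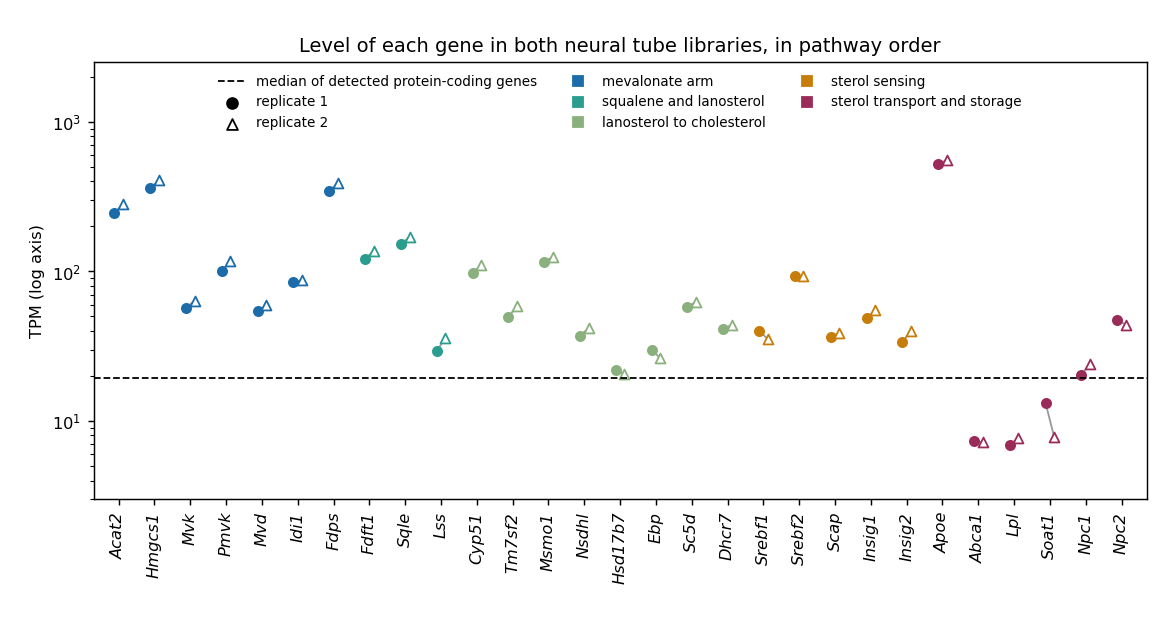
TPM on a log axis for each of the 29 genes in both libraries, in pathway order and coloured by role. Filled circles are replicate 1, open triangles replicate 2, a line joins the pair, and the dashed line marks the median of detected protein-coding genes at 19.5 TPM. Levels span 7.30 to 540.2 TPM on average, and the 2 points of most genes lie close together, with Soat1 furthest apart.

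The mevalonate arm held the most abundant enzymes. Hmgcs1, the cytosolic HMG-CoA synthase, was the highest of all 18, with 361 TPM in replicate 1 and 408 in replicate 2 (384 ± 33.2, SD, n = 2). Fdps, which makes farnesyl diphosphate, followed with 345 and 390.2 TPM. Acat2, the cytosolic thiolase that joins acetyl-CoA units at the entry of the pathway, had 245 and 284 TPM. Hmgcs1 was above Fdps in each library, by less than the spread of either between pools, and both were higher in replicate 2. Acat2 was below both in each library. The 3 steps between mevalonate and isopentenyl diphosphate were lower. Pmvk, the second kinase of the arm, had 101 and 117 TPM. Mvk, the first kinase, had 57.3 and 63.7 TPM. Mvd, the decarboxylase, had 54.0 and 59.8 TPM, close to Mvk. Idi1, which isomerises isopentenyl diphosphate, had 84.8 and 87.7 TPM (86.2 ± 2.05, SD, n = 2). All 7 genes of the arm were higher in replicate 2, as were 46.6% of 16524 genes with a mean of at least 1 TPM.

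At the commitment to sterols, Sqle, the oxygen-requiring squalene epoxidase, had 153 and 169.7 TPM and Fdft1, squalene synthase, 121 and 138 TPM. Lss, which closes the ring to lanosterol, stood well below both, with 29.3 TPM in replicate 1 and 36.0 in replicate 2 (32.7 ± 4.71, SD, n = 2), and 15.2 TPM on average over coding transcripts only. Of the 3 neighbouring steps, the last therefore had the lowest RNA level in both pools.

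The 8 genes from lanosterol to cholesterol had a median of 45.3 TPM in replicate 1 and 51.5 in replicate 2, against 101 and 117 TPM for the mevalonate arm. The arm's median was the higher one in each library, and the ranges of the groups overlapped. Msmo1, the sterol methyl oxidase, had 115 and 125 TPM, and Cyp51, the lanosterol demethylase, 97.9 and 109.7 TPM. Over coding transcripts only, Msmo1 averaged 75.0 TPM and Cyp51 102, so their order depends on which transcripts are summed. Nsdhl and Hsd17b7, the dehydrogenase and the reductase that work with Msmo1 to remove methyl groups, were far lower. Nsdhl had 37.3 and 41.7 TPM, and Hsd17b7 had 22.0 and 20.6 TPM, the lowest of the 18 enzymes, with 13.8 TPM on average over coding transcripts only. Hmgcs1 exceeded Hsd17b7 by a factor of 18.0 in mean level. Ebp, the sterol isomerase, had 29.9 and 26.4 TPM. Sc5d, the desaturase after it, had 58.2 and 62.5 TPM. Dhcr7, the reductase that ends one route to cholesterol, had 41.4 and 44.0 TPM.

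Tm7sf2 and Lbr encode sterol reductases that act on the same intermediate, and Lbr also anchors chromatin to the nuclear envelope. Tm7sf2 had 49.3 and 58.9 TPM, of which 33.2 and 41.7 fell on transcripts annotated as protein-coding. Lbr had 43.0 TPM in replicate 1 and 18.4 in replicate 2. Over all transcripts, the ratio of Tm7sf2 to Lbr was 1.15 in replicate 1 and 3.20 in replicate 2 (2.17 ± 1.45, SD, n = 2). It was above 1 in both pools, and was not computed over coding transcripts only. In counts not divided by length it was 0.408 in replicate 1 and 1.12 in replicate 2, with a mean of 0.764, so the order of the pair depended on the unit in replicate 1 and not in replicate 2. Markers of dividing cells moved the same way as Lbr, with a sum of 408.2 TPM in replicate 1 and 196.6 in replicate 2. All 6 of 6 were lower in replicate 2, as were 53.2% of 16524 genes with a mean of at least 1 TPM. The part of dividing cells in the Lbr difference was not tested. In bulk tissue, fewer cells of a type and less RNA per cell cannot be told apart.

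Among the sensors, Srebf2, whose product chiefly drives sterol genes, was the most abundant, with 93.7 TPM in replicate 1 and 92.5 in replicate 2 (93.1 ± 0.827, SD, n = 2). Srebf1, whose product acts more on fatty acid genes, had 40.1 and 35.4 TPM. Their ratio was 2.34 and 2.61 (2.48 ± 0.198), above 1 in both pools, and 5.01 on average in counts not divided by length. Over coding transcripts only, Srebf1 averaged 22.7 TPM and Srebf2 93.1. Scap, the escort, had 36.3 and 38.9 TPM. Insig1, itself a target of SREBP, had 49.0 and 54.8 TPM, and Insig2, a second retention protein, 33.7 and 40.1 TPM. Insig1 exceeded Insig2 by factors of 1.45 and 1.37 (1.41 ± 0.0608). Over all transcripts, Srebf1, Scap and Insig2 had means of 37.8, 37.6 and 36.9 TPM and did not differ beyond their spread. Over coding transcripts only, Srebf1 was the lowest of them, at 22.7 TPM against 37.6 for Scap and 35.6 for Insig2.

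Srebf1 has several annotated starts, and the promoter sequences of the main coding pair are shown above. Per the annotation on GRCm38, the transcript Srebf1-201 starts at base 60220604 of chromosome 11 on the minus strand, and Srebf1-207 starts 10139 bases downstream, at base 60210465. They correspond to the forms known as SREBP-1a and SREBP-1c, which differ in their first exon. The upstream transcript had 15.2 TPM in replicate 1 and 10.1 in replicate 2, and the downstream one 7.17 and 6.84 TPM. As annotated, the upstream transcript was the more abundant of this pair in both pools, by factors of 2.12 and 1.48 (1.80 ± 0.454, SD, n = 2). The pair also differs at the 3′ end, where Srebf1-201 runs to base 60199089 and Srebf1-207 stops at base 60200463. The ratio therefore does not compare first exons alone. In percent of the gene's TPM, the upstream form held 37.9 and 28.6 and the downstream form 17.9 and 19.3. Another coding transcript, Srebf1-203, which starts at base 60207188, held 7.24% and 9.04%. A further 27.4% and 31.0% fell on Srebf1-204, a noncoding transcript of only 367 bases that starts further upstream, at base 60222581, with 65.4 and 77.9 counts. Such short models receive a high TPM from few reads.

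Sterol transport was led by Apoe, the main apolipoprotein of the brain. It had 522 TPM in replicate 1 and 558 in replicate 2 (540.2 ± 25.0, SD, n = 2), and only 183 of 13622 detected protein-coding genes stood higher on average. Abca1, the pump that loads cholesterol and phospholipid onto apolipoprotein E, had 7.39 and 7.22 TPM. Apoe thus exceeded Abca1 by factors of 70.7 and 77.3 (74.0 ± 4.64). Against Clu, another brain apolipoprotein, Apoe was higher by factors of 9.50 and 11.9. In counts not divided by length, the mean ratio of Apoe to Abca1, a far longer transcript, was 7.58, and that of Apoe to Clu 6.67. Lpl, a lipase of lipoprotein triglycerides, had 6.91 and 7.71 TPM. Over all transcripts this was close to Abca1, but over coding transcripts only Lpl averaged 2.94 TPM and Abca1 7.26. Npc2, which picks up free cholesterol inside lysosomes, had 47.1 and 44.2 TPM. Npc1, the membrane protein that receives it, had 20.4 and 24.2 TPM, and the ratio of Npc2 to Npc1 was 2.31 and 1.83 (2.07 ± 0.338). In counts not divided by length this ratio was 1.65 and 1.60. Over coding transcripts only, Npc1 had 15.3 and 14.6 TPM, while all of Npc2 was coding. Soat1, which esterifies cholesterol for storage, had 13.2 TPM in replicate 1 and 7.82 in replicate 2 (10.5 ± 3.77). Soat2, its liver and gut counterpart, had 0.55 and 0.05 TPM, from 26 and 3 counts.

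The transcript tables divide each gene's TPM among its annotated transcripts. In 18 genes the leading transcript held 80% or more on average, and 11 genes had a transcript at 99% or more. In 20 genes 95% or more of TPM fell on transcripts annotated as protein-coding. Hmgcs1, Mvd, Fdps, Fdft1, Srebf2, Scap, Insig1 and Npc2 were listed with a single transcript at 100% in both libraries. In 8 genes under 80% was coding: Lss, Tm7sf2, Msmo1, Hsd17b7, Ebp, Srebf1, Lpl and Npc1.

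Lpl stood out among these with a leading transcript annotated as a target of nonsense-mediated decay. Lpl-203 held 58.1% of the gene's TPM in replicate 1 and 59.1% in replicate 2, and the coding Lpl-201 held 40.1% and 40.2%. By counts the order was the other way, 160.4 and 217 for Lpl-203 against 247 and 329.6 for Lpl-201, which is the longer of the pair at 4115 against 1900 bases. The split was nearly the same in both pools.

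In the 5 enzymes with under 80% coding, most of the noncoding share lay in processed transcripts and retained introns. Msmo1-201 held 58.6% and 61.9% of Msmo1, and the processed transcript Msmo1-206 held 34.8% and 32.2%. Hsd17b7-201 held 50.9% and 56.0%, and the processed transcript Hsd17b7-204 held 32.9% and 29.9%. Tm7sf2-201 held 54.4% and 52.6%, with 13.3% and 11.3% in Tm7sf2-211, a retained intron. Ebp-201 held 49.5% and 55.4%, the short coding Ebp-203 held 23.0% and 25.1%, and the retained intron Ebp-202 held 21.8% and 14.8%. Lss was the most divided enzyme. The coding Lss-201 held 45.6% in replicate 1 and 37.1% in replicate 2, while its TPM was 13.4 and 13.3. The 352-base Lss-202 held 14.7% and 24.5% on 24.2 and 59.1 counts, and the retained introns Lss-205 and Lss-204 held 13.2% and 17.8%, and 11.0% and 10.1%.

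Other genes were split between coding forms. Mvk-201 held 71.5% and 73.4%, with Mvk-202 at 12.8% and 10.9% and Mvk-205 at 12.4% and 10.7%. Insig2-201 held 58.5% and 47.8%, and Insig2-208 held 27.8% and 28.8%. In Npc1, the coding Npc1-201 had 15.3 and 14.6 TPM, and its share was 75.0% in replicate 1 and 60.3% in replicate 2. The rest of that shift lay in the 352-base noncoding Npc1-203, at 12.7% and 30.8% on 14.5 and 49.9 counts.

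**Figure D2:**
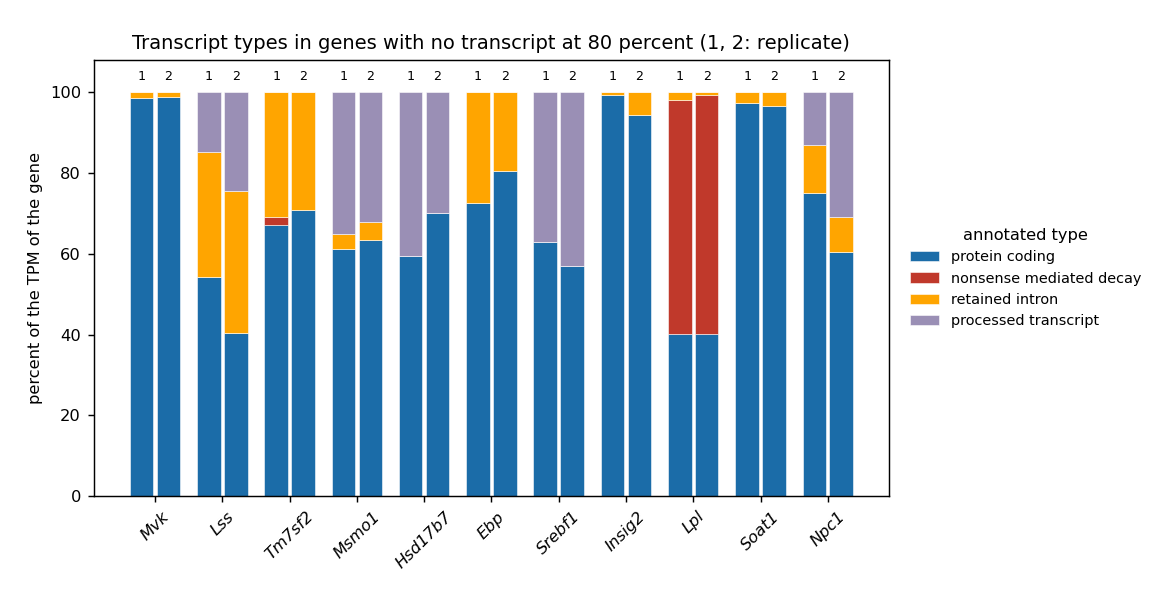
Percent of each gene's TPM on transcripts of each annotated type, in replicates 1 and 2 side by side, for the 11 genes in which the leading transcript held under 80% on average. Mvk, Insig2 and Soat1 are nearly all coding, Lpl is coding to 40.1% and 40.2%, and the coding share of Lss is 54.2% in replicate 1 and 40.5% in replicate 2.

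Between the pools, 0 of the 29 genes differed 2-fold or more, an absolute log2 ratio of TPM + 1 of at least 1, as 6.27% of 16524 genes with a mean of at least 1 TPM did. That background was lopsided, with 0.635% higher in replicate 2 and 5.63% lower. At 1.5-fold, 1 of the 29 was apart, Soat1, against 12.7% of all genes, and 10.8% in its direction, lower in replicate 2. Differences between 1 library and 1 library have no replicate check, and the intervals given below cover counting error only.

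The synthesis enzymes leaned one way by a small amount. In TPM, 16 of 18 were higher in replicate 2, where 46.6% of all genes were. Their median log2 ratio was 0.15, with a range of -0.18 to 0.29, beside -0.02 over all genes. The counting interval of the CPM ratio, from counts scaled to each library total on annotated genes, lay wholly above 1 for 14 of the 18, beside 24.7% of all genes, and held 1 for the other 4. Such intervals narrow as counts rise, and the enzymes had a median of 73.6 TPM, beside 14.5 over all genes compared. The shares therefore do not compare genes at like counts. For Hmgcs1 the CPM ratio was 1.13 (95% interval 1.11 to 1.15). For Acat2 it was 1.16 (1.13 to 1.19), and for Sqle 1.11 (1.08 to 1.14). Idi1 was near equal at 1.03 (0.989 to 1.06). Ebp and Hsd17b7 were lower in TPM, with log2 ratios of -0.18 and -0.09, and Hsd17b7 was not lower on CPM, at 1.03 (0.953 to 1.10). Lss had the widest TPM difference of the enzymes, a log2 ratio of 0.29, but -0.12 when only coding transcripts were summed. All 7 neuron markers were also higher in replicate 2, with a median log2 ratio of 0.28, and 5 of 7 radial glia and astrocyte markers were. Their part in the lean of the enzymes was not tested.

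The other members did not share a direction. Of the 11, the counting interval lay wholly above 1 for 3, beside 24.7% of all genes, and wholly below 1 for 3, beside 33.4%. Scap, Insig1 and Apoe were the higher ones, with CPM ratios of 1.07, 1.12 and 1.06. Srebf1, Soat1 and Npc2 were the lower ones. Srebf2 was level, with a CPM ratio of 0.988 (0.963 to 1.02), while Srebf1 had 0.796 (0.750 to 0.845). Npc1 and Insig2 were higher in TPM, with log2 ratios of 0.23 and 0.24, but had CPM ratios of 0.967 (0.911 to 1.03) and 1.04 (0.967 to 1.11).

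Soat1 differed most. Its log2 ratio was -0.68 and its CPM ratio 0.704 (0.646 to 0.768). The largest part of the difference lay in Soat1-201, which had 317 counts in replicate 1 and 164 in replicate 2, while the 8371-base Soat1-207 had 783 and 769. In TPM these were 5.06 and 2.19 for Soat1-201 against 4.27 and 3.51 for Soat1-207. The leading transcript by share therefore differed between the pools, with Soat1-201 at 38.5% and 28.0% and Soat1-207 at 32.5% and 44.9%. The 366-base Soat1-206 held 17.1% and 18.1% on 13.3 and 9.99 counts. Thymocyte and epithelial markers were lower in replicate 2 too, by the sums given above, and their part in the Soat1 difference was not tested.

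**Figure D3:**
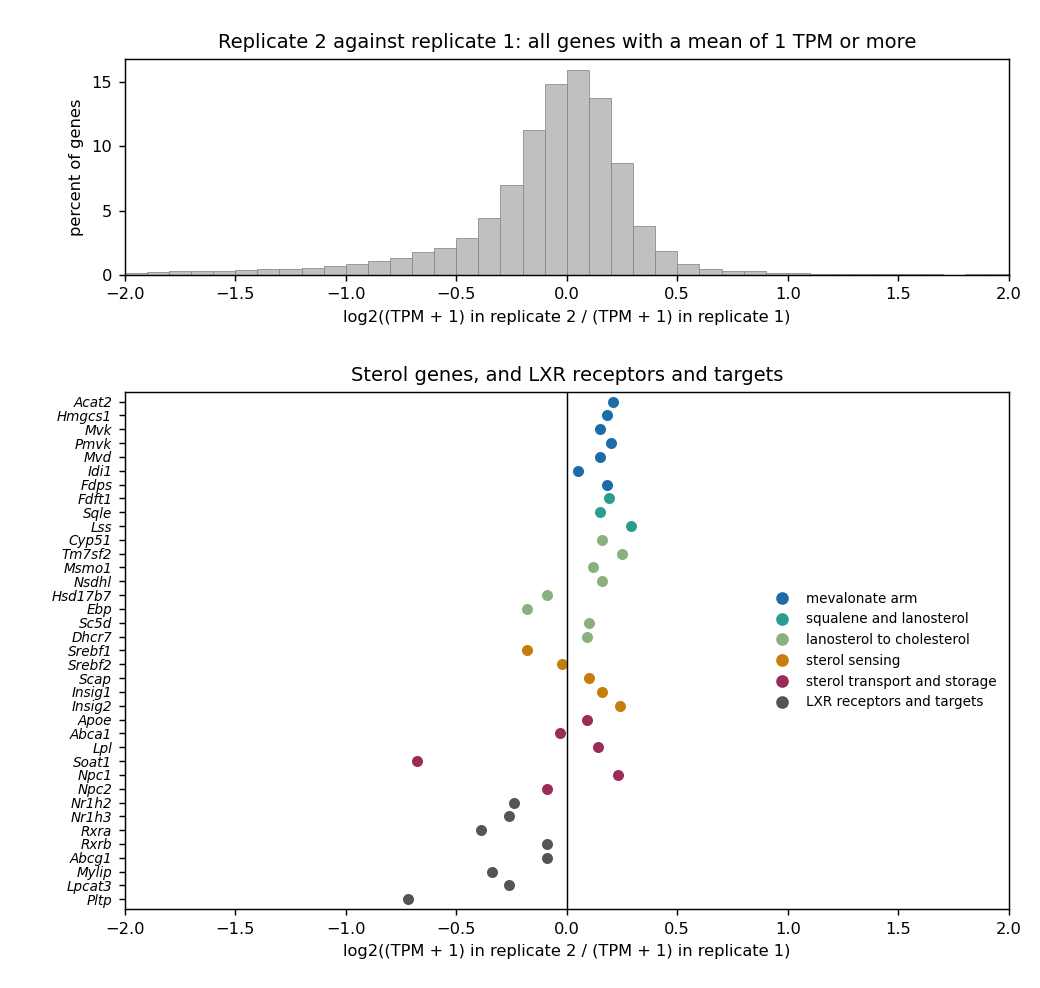
Top, percent of 16524 genes with a mean of at least 1 TPM in each bin of the log2 ratio of TPM + 1, replicate 2 over replicate 1, of which 364 lie past the plotted range of 2 either way. Bottom, the same ratio for each of the 29 genes, coloured by role, and for the 8 LXR list genes in grey: 16 of 18 enzymes lie right of 0, Soat1 lies at -0.68, and all 8 LXR list genes lie left of 0.

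Genes around the pathway, 77 in 8 lists, put these levels in context. All 6 genes of SREBP processing and turnover were detected, with medians of 42.8 and 39.7 TPM. Erlin2, a protein of endoplasmic reticulum membranes, had 42.9 and 43.9 TPM. All 14 genes of the isoprenoid branch, which uses farnesyl diphosphate for other ends, were detected at medians of 34.4 and 32.6 TPM. Fnta, a subunit of protein prenyltransferases, had 87.3 and 86.9 TPM, and Ggps1, which makes geranylgeranyl diphosphate, 45.2 and 47.3 TPM. In that branch 7 genes were higher and 7 lower in replicate 2, where 46.6% of all genes were higher.

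Relatives of the pathway enzymes differed widely in level. Acat1, the mitochondrial thiolase, had 142 and 147 TPM, so Acat2 exceeded it by factors of 1.72 and 1.93. Acat3, a close relative next to Acat2, had 0.96 and 0.93 TPM, and how the model shared reads between the pair was not tested. Idi2 had 0.03 TPM in replicate 1 and was listed at 0 in replicate 2, so Idi1 carried nearly all RNA of the isomerase pair. Erg28, a scaffold for the demethylation complex, had 89.7 and 90.4 TPM, above Nsdhl and Hsd17b7 in both pools.

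All 13 genes of fatty acid synthesis were detected, with medians of 38.9 and 44.6 TPM, and 10 were higher in replicate 2, where 46.6% of all genes were. Scd2, the main desaturase of the developing brain, had 210.4 and 216 TPM, and exceeded Scd1 by factors of 34.0 and 30.9. Acly, which supplies cytosolic acetyl-CoA to both pathways, had 175 and 179 TPM.

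The LXR list joins the LXRs, which are receptors for oxidised sterols, the retinoid X receptors Rxra and Rxrb, and some LXR targets. It leaned the other way. All 8 genes were detected, and all 8 were lower in replicate 2, where 53.2% of all genes were, with a median log2 ratio of -0.26. The counting interval lay wholly below 1 for 6 of the 8, beside 33.4% of all genes. The list had a median of 32.9 TPM, beside 14.5 over all genes compared, so these shares do not compare genes at like counts either. Pltp, a phospholipid transfer protein, had 158 and 95.8 TPM, the largest difference of the list. Nr1h2, the broadly expressed LXR, had 50.2 and 42.3 TPM, and exceeded Nr1h3, the other LXR, by factors of 20.0 and 21.9. Abca1, an LXR target among the 29, was level by comparison, with a CPM ratio of 0.966 (0.904 to 1.03). Other members of the 29 went both ways, with 0.796 (0.750 to 0.845) for Srebf1 and 1.06 (1.03 to 1.08) for Apoe. The list holds only some LXR targets, so its lean says nothing about targets left out of it. Many marker sets were lower in replicate 2 as well, where 53.2% of all genes were. Lower were 5 of 6 endothelial, 7 of 8 microglial, 6 of 8 oligodendrocyte lineage and 4 of 4 red cell markers. So were all 8 thymocyte, 7 epithelial, 5 liver and 6 dividing cell markers. These counts take in very small differences. The microglial set was near level, with a median log2 ratio of -0.03, beside -0.02 over all genes. The medians were -0.12 for the oligodendrocyte lineage, -0.23 for endothelium and -0.30 for red cells. All 7 neuron and all 5 muscle markers were higher, as were 5 of 7 of radial glia and astrocytes. The part of these cell types in the difference was not tested.

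Lipoprotein partners of Apoe were present. Of 13 genes, 13 were detected, with medians of 23.6 and 23.2 TPM. Lrpap1, a chaperone of lipoprotein receptors, had 136 and 142 TPM, and Lrp1, a receptor that takes up apolipoprotein E, 82.5 and 87.5 TPM. Sterol clearance was low. Its 6 genes had medians of 3.52 and 3.02 TPM, and 4 were detected. Cyp46a1, the neuronal cholesterol hydroxylase, led with 18.1 and 21.4 TPM, followed by Cyp39a1 with 8.01 and 5.64 TPM. Ch25h, another hydroxylase, had 0.95 and 0.41 TPM, and Cyp7a1, the rate-limiting enzyme of bile acid synthesis in liver, was listed at 0 in both. Of 12 genes for intracellular transfer and esters, 10 were detected. Scp2, a sterol carrier, had 200.5 and 192 TPM, and Gramd1a, which moves cholesterol from the plasma membrane to the endoplasmic reticulum, had 118 and 138 TPM.

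**Figure D4:**
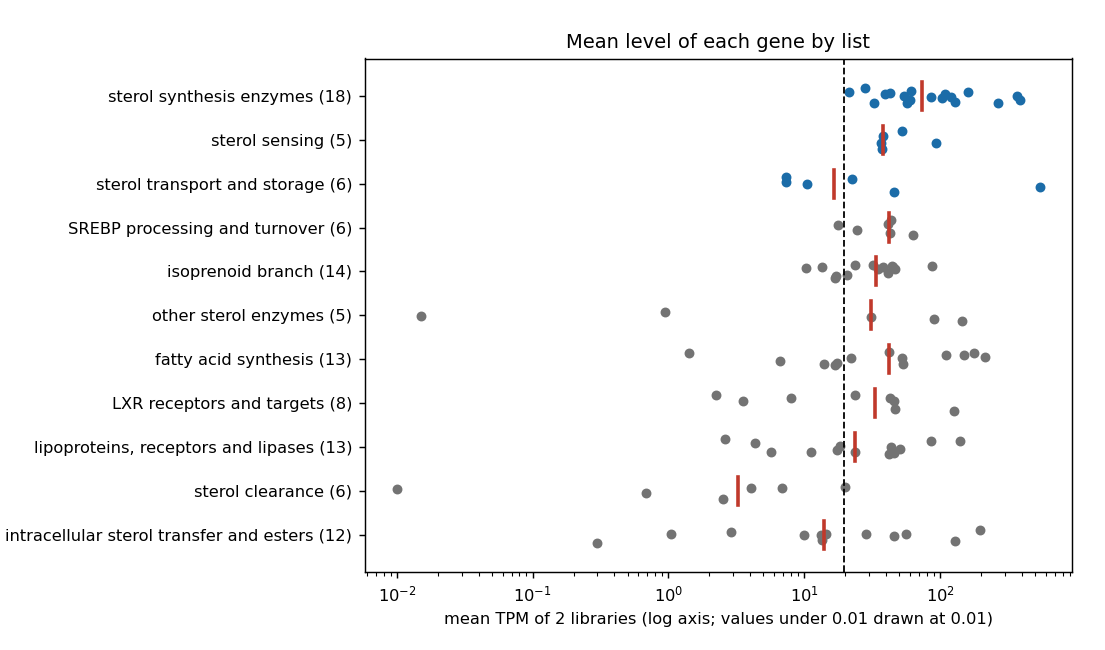
Mean TPM over both libraries on a log axis for each gene, 1 point a gene, by list, with the 29 genes in blue and genes around the pathway in grey. Red bars are list medians, the dashed line is the median of detected protein-coding genes at 19.5 TPM, and Cyp7a1, at 0, is drawn at 0.01. Over all transcripts, as drawn, the synthesis enzymes all lie right of the dashed line, and sterol clearance reaches at most 19.8 TPM.

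Several members share genomic bases with other genes, and the use of strand in counting was not given in the sources used here. Exons of Cyp51 overlap those of Akap9 on the opposite strand, which had 236 and 265 TPM. Exons of Fdft1 overlap those of Ctsb, at 148 and 143 TPM, and exons of Srebf1 overlap those of Rai1, at 21.4 and 22.0 TPM, each on the opposite strand. Npc1 overlaps Rmc1 on the opposite strand and Tm7sf2 overlaps Vps51 on the same strand, so reads in the shared stretches could be assigned to either gene.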

How the data were processed

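Each library has a gene table and a transcript table, built by the authors on mm10 with GENCODE M4, per the sample notes. Aligner, quantifier, versions and strand handling were not given in the sources used here. As deposited by the authors, and per the file headers, values are an expected count, TPM and FPKM for every gene or transcript, with each transcript's percent of its gene. Deposited posterior mean TPM served as an alternative, and deposited FPKM was not used.

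The 29 members and all lists were chosen with earlier results of these data known. Symbols, types and coordinates came from GENCODE M21 on GRCm38, the assembly of mm10, matched by identifier without version (42462 matched, 884 did not). Of 69691 entries, 96 spike-ins (2.12% and 2.28% of counts) and 26248 entries named by number stayed out of gene analyses. Members of the lists around the pathway are named by rule: the 2 highest of each list and up to 3 under 1 TPM in both libraries, plus the genes of fixed pairs. A gene that this rule names is not reported here. Transcripts are named at 10% or more in both libraries where the leading one holds under 80%. Others named were chosen after their values were seen. Between libraries, log2 of TPM + 1 was compared over genes with a mean of at least 1 TPM. CPM ratios from rounded expected counts carry exact conditional binomial 95% intervals, which cover counting error only. At these depths 3 counts equal 0.0344 and 0.0243 TPM for Soat1. edgeR 4.0.16 gave TMM factors and DESeq2 1.42.0 size factors in R 4.3.3, as alternatives only. Other steps ran in Python 3.11.15 with pandas 2.3.3 and scipy 1.17.1. Only the 2-fold call between libraries and the counting interval were tested on simulated counts.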

Additional observations from a re-analysis of the deposited data

How the results depend on the processing

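All 29 genes were detected under every setting tried. The median level of the enzymes, 73.6 TPM, was 77.6 with TPM rescaled over annotated genes, 67.8 with coding transcripts only, a setting chosen after seeing the data, and 71.5 to 75.7 with 1 replicate left out. On CPM, not divided by length, the ratio of Srebf2 to Srebf1 was 5.01 and that of Insig1 to Insig2 was 2.05, and Tm7sf2 to Lbr averaged 0.764, reversed in replicate 1, at 0.408, and not in replicate 2, at 1.12. Insig1 to Insig2 was 1.27 with posterior mean TPM. With 1 replicate left out these ratios spanned 2.34 to 2.61, 1.37 to 1.45 and 1.15 to 3.20. Members apart between the libraries numbered 0 at 2-fold and 1 at 1.5-fold. Comparisons added after seeing the data gave 16 or 17 of 18 enzymes higher in replicate 2, with Ebp lower in each, and 8 of 8 LXR list genes lower. The share of all genes higher in replicate 2 was 46.6%, 51.1% with TMM scaling, 52.8% with DESeq2 size factors and 37.7% with coding transcripts only. Single levels recomputed under the 3 other scalings of TPM stayed within the SD between pools in 68 cases and moved past it in 19. No paired analysis was possible because the libraries form 1 group. Leaving out a library ends the comparison between libraries, so it was not run there.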
